A study of Mus musculus with 3 samples.

Results

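The replication-dependent histone genes form 4 clusters in the mouse genome, and their levels were read here in blood monocytes. A gene was counted as a member where its symbol begins with Hist1h, Hist2h, Hist3h or Hist4h and it has at least 1 protein-coding transcript in GENCODE M21. This rule, which uses no measured value, gave 67 of the 55536 genes listed: 6 genes of H1, 18 of H2A, 18 of H2B, 12 of H3 and 13 of H4. Of these, 54 lie on chromosome 13, 10 on chromosome 3, 2 on chromosome 11 and 1 on chromosome 6. The symbols Hist1h2aj, Hist1h2al and Hist3h2bb-ps belong to pseudogenes and were left out. The RNA came from peripheral-blood monocytes of adult C57BL/6J mice aged 5 to 6 weeks, with no treatment recorded, in 3 libraries numbered as biological replicates of 1 group. All 3 carry the same donor record, so the errors given here cover differences among these libraries, part of which may be technical. Ribosomal RNA was depleted from 100 ng of total RNA before library preparation, and no selection for poly(A) tails is recorded.

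Histones are the proteins around which DNA is wound. H2A, H2B, H3 and H4 build the nucleosome core, and H1 binds the linker DNA between nucleosomes. The clustered genes are known for being switched on when a cell copies its DNA, and most of their messages end in a short stem-loop instead of a poly(A) tail. The protein SLBP binds that stem-loop, which governs processing, export and decay of the message, and some clustered genes also give poly(A) forms in cells that no longer divide. Histone genes outside the clusters, such as H3f3a and H3f3b, are poly(A)-tailed and used throughout the cell cycle. A library without poly(A) selection can hold both kinds of message.

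The stem-loop is shown first because it is the feature that sets these messages apart from others. The core searched has 16 letters: GG at its start, CC at its end, and CT before and AG after a loop of 4 letters with TT in its middle, the other letters left free. It stood behind the coding end, on the transcript's own strand, in 43 of 67 member models, against 0.283% of 58725 coding transcripts of other genes when searched over their whole length. It began 21 to 58 bases after the coding end. Lines below give 1 member for each core and, for the most common core, both the leading H2A and the leading H1 gene, 5′ to 3′ in DNA letters from the GENCODE M21 transcripts. Capitals mark the 16 letters of the core.
Hist2h2aa1: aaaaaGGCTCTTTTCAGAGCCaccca
Hist1h1c: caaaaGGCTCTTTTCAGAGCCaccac
Hist1h2bb: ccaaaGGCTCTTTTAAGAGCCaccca
Hist2h2ac: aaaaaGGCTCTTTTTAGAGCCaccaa
Hist1h4d: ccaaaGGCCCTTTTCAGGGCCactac
Hist2h4: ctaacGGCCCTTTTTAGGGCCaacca
Hist1h4b: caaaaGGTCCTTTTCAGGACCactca
The core of Hist2h2aa1 and Hist1h1c was shared by 25 members, none of them an H4 gene. The core of Hist1h2bb was shared by 6 members and that of Hist2h2ac was found once. All 11 H4 members with a match had other cores: 7 members that of Hist1h4d, 2 that of Hist2h4 and 2 that of Hist1h4b. Of the 24 models with no match, 18 end under 40 bases after the coding end, and 13 of the 67 models hold coding sequence alone, so no match says only that these letters are not in the annotated model.

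The libraries held 27.2, 26.5 and 19.9 M expected counts in libraries 1, 2 and 3. Of 12 monocyte markers, 11 passed the test for a level above 1 TPM, beside 54.0% of protein-coding genes tested. The list summed to 2470, 2079 and 1482 TPM. Lyz2 led with 1448, 1238 and 718 TPM, lowest in library 3, while 6 of the 12 were highest there, beside 53.4% of protein-coding genes tested. Csf1r was among these 6, at 69.84, 52.40 and 86.61 TPM. Markers of other blood cells were present too, and several of their sums in library 3 stood apart from those in libraries 1 and 2. The 8 NK cell markers summed to 649, 544 and 1544 TPM, and the 8 erythroid markers to 3535, 3328 and 263 TPM. The 7 neutrophil markers, Ly6g at 0 in all 3 libraries, summed to 140.5, 126.2 and 9.44 TPM. Retnlg made up 124.45, 114.09 and 0 TPM of these sums. S100a8, S100a9, Cxcr2 and Mmp8 were also lowest in library 3, while Csf3r was highest there, at 5.99, 6.64 and 8.09 TPM. The 7 platelet markers summed to 15.3, 11.3 and 98.3 TPM. The 7 B cell markers summed to 92.6, 93.0 and 83.9 TPM, the 7 T cell markers to 3.43, 3.48 and 6.57 TPM, the 7 markers of basophils, eosinophils and mast cells, Epx at 0, to 26.2, 29.1 and 4.63 TPM and the 6 dendritic cell markers to 4.79, 3.69 and 2.24 TPM. In bulk RNA, more cells of a type and more RNA per cell cannot be told apart.

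The clustered histone genes were readily detected. Their levels summed to 569.5, 437.2 and 776.2 TPM in libraries 1, 2 and 3, a mean of 594.3 TPM ± 170.9 (SD, n = 3). TPM is a relative abundance per transcript length, scaled by the authors over all rows including small RNAs, so it is low for protein-coding genes, which hold 10.9%, 9.84% and 10.7% of the total. Members took 0.522%, 0.444% and 0.725% of the protein-coding TPM and 0.135%, 0.118% and 0.165% of all counts. The H2A class held 48.0% ± 4.88 of the members' TPM, H2B 17.5% ± 0.873, H1 17.2% ± 1.83, H4 15.3% ± 6.11 and H3 2.07% ± 1.04 (SD, n = 3 each). The order below H2A depended on the table: in M4 the sums averaged 156.6 TPM for H4, 139.8 for H1 and 57.1 for H2B, against 97.6, 99.9 and 103.5 TPM in M21. The H2B sums do not cover the same genes, since Hist2h2bb, Hist1h2bm and Hist1h2bh have no M4 value. Of these, Hist2h2bb alone had a mean of 38.6 TPM in M21. By counts, which favour long models, H1 came first with 43.5%, 43.4% and 39.8%. The Hist1 cluster of chromosome 13 held 56.0% ± 4.66 and the Hist2 cluster of chromosome 3 held 43.2% ± 4.47 of the TPM (SD, n = 3), although the second has 10 genes against 54. This split depended on the table too. The sums averaged 333.6 TPM for Hist1 and 255.5 for Hist2 in M21, but 429.1 and 219.1 TPM in M4, which lacks Hist2h2bb. By counts Hist1 held 65.0%, 70.6% and 70.8%.

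**Figure D1:**
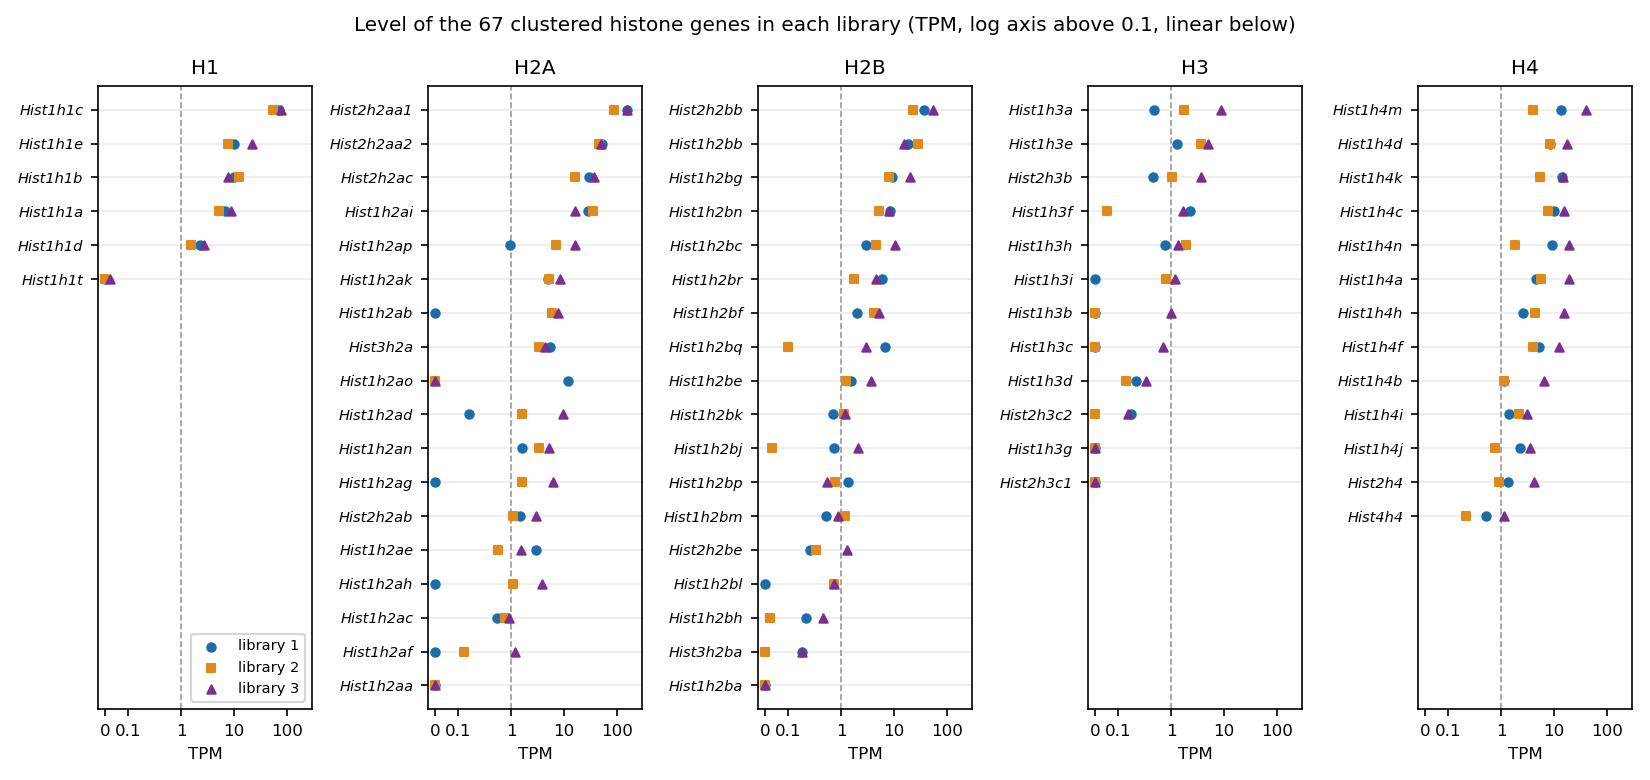
Level of each of the 67 clustered histone genes in libraries 1, 2 and 3 (TPM on the horizontal axis, log above 0.1 and linear below), sorted by mean within each class. The dashed line marks 1 TPM. Hist2h2aa1 and Hist1h1c lie farthest right, while most H3 genes lie near or left of the line and 4 genes sit at 0 in all 3 libraries.

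With a single group, each gene was tested against a fixed level of 1 TPM with edgeR's quasi-likelihood test, adjusted over all 17664 genes tested. Of 62 members with a summed count of 10 or more, 38 passed above 1 TPM, 24 did not pass and 0 passed below. Among all genes tested 43.2% passed above and 6.36% below, and among protein-coding genes 54.0% and 6.03%. The share above was therefore 61.3% of members against 54.0% of protein-coding genes. By class, 5 of 5 H1, 10 of 17 H2A, 9 of 17 H2B, 2 of 10 H3 and 12 of 13 H4 members tested passed above. Over all 67 members the median of mean TPM was 2.89, beside 2.09 over 12994 protein-coding genes tested. For the count of 0 below, edgeR gave 0 members also at an unadjusted p under 0.05 and DESeq2 gave 0, while limma on log2(TPM + 0.1) called 7 and on log2(TPM + 1) called 6. DESeq2 called 26 members above. Without library 3, edgeR called 30 members above, and Hist2h2be and Hist4h4 below.

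Among linker histones, Hist1h1c had the highest level. It lies at chr13:23738808-23740367 on the plus strand of mm10, a gene of 1 exon with a 636-base coding sequence. Its levels were 71.11, 55.20 and 76.12 TPM, a mean of 67.5 TPM ± 10.9 (SD, n = 3; edgeR adjusted p = 1.46e-13). The 3 libraries lay close together, and the posterior SD that the authors deposited with each count, a measure of how reads could be divided among similar genes, was at most 0.0267% of its count. The 5 other H1 genes together reached 29.2, 26.6 and 41.5 TPM. In the M4 tables they reached 64.3, 51.5 and 99.7 TPM beside 71.34, 55.45 and 77.13 TPM for Hist1h1c, so that in library 3 they exceeded it.

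Hist1h1e had 10.20, 7.65 and 22.22 TPM (edgeR adjusted p = 1.17e-08), with library 3 above both others. Hist1h1b had 9.85, 12.25 and 7.65 TPM (edgeR adjusted p = 1.99e-08) and is the H1 gene in which library 3 was lowest. Hist1h1a had 6.80, 5.19 and 8.89 TPM (edgeR adjusted p = 3.80e-07). Hist1h1e was above Hist1h1a in every library, also in M4, while the place of Hist1h1b changed from library to library. The 3 genes were not tested against each other.

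Hist1h1d stood at 2.30, 1.53 and 2.67 TPM (edgeR adjusted p = 6.31e-04), but on 1872, 1349 and 1471 counts, in sum 4693 against 1816 for Hist1h1b. Its GENCODE M21 model is 7425 bases long with 4931 bases after the coding end, against a RefSeq span of 776 bases and an M4 model of 744 bases. In the M4 tables it had 1144, 851 and 1096 counts and 17.96, 12.11 and 26.19 TPM. By either table all 5 somatic H1 genes passed above 1 TPM, while DESeq2 did not call Hist1h1d. Hist1h1t, the linker histone of testis, had 0, 0 and 1 count, and 100.0% of the 31-base words of its model are found in no other gene.

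The highest member of all was Hist2h2aa1, a core histone gene at chr3:96245497-96246082 on the plus strand. It had 152.68, 90.01 and 156.37 TPM, a mean of 133 TPM ± 37.3 (SD, n = 3; edgeR adjusted p = 4.52e-14). Its inverted copy Hist2h2aa2, at chr3:96239749-96240276 on the minus strand, had 51.78, 46.13 and 51.28 TPM (edgeR adjusted p = 1.91e-12). Both have the same 390-base coding sequence and the same stem-loop window, and no 31-base word of the Hist2h2aa2 model is unique to it. The split between them is therefore uncertain, and their sum of 204.5, 136.1 and 207.7 TPM is the firmer value. That pair and Hist1h1c made up 48.4%, 43.8% and 36.6% of the members' TPM.

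Hist2h2ac, in the same cluster, had 30.32, 15.85 and 37.36 TPM (edgeR adjusted p = 2.55e-10), with library 2 lowest. Hist1h2ai on chromosome 13 had 28.62, 34.92 and 16.37 TPM (edgeR adjusted p = 4.12e-10), with library 3 lowest. That order did not hold in the kallisto-format tables, where Hist1h2ai had 59.5, 58.4 and 75.8 TPM with library 3 highest. Its posterior SD reached 12.2% of the count in library 3, and 11.6% of the 100-base words of its model are found in no other gene. Among the other 14 H2A genes, 6 passed above 1 TPM: Hist1h2ap, Hist1h2ak, Hist1h2ab, Hist3h2a, Hist1h2ad and Hist1h2an, with means from 3.37 to 7.93 TPM. Of these, Hist1h2ab rested on libraries 2 and 3, since library 1 had 0 TPM against 6.03 and 7.69, and Hist1h2ab, Hist1h2ad and Hist1h2an lost the call without library 3. Hist3h2a was the steadiest of these 6, at 5.50, 3.34 and 4.34 TPM.

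Hist2h2bb led the H2B class with 36.64, 23.32 and 55.69 TPM, a mean of 38.6 TPM ± 16.3 (SD, n = 3; edgeR adjusted p = 9.50e-11). It lies at chr3:96269752-96270132 with a model of coding sequence alone, and it has no entry in the M4 tables used here. Hist1h2bb had 18.65, 28.15 and 15.56 TPM (edgeR adjusted p = 5.80e-10) in the M21 tables and 6.05, 4.41 and 12.22 TPM in the M4 tables, so that library 2 was highest by one and lowest by the other. Hist1h2bg had 9.07, 8.15 and 19.90 TPM (edgeR adjusted p = 3.59e-08) and Hist1h2bn 8.59, 5.11 and 7.92 TPM (edgeR adjusted p = 4.33e-06). The other 5 H2B genes that passed, Hist1h2bc, Hist1h2br, Hist1h2bf, Hist1h2bq and Hist1h2be, had means from 2.15 to 6.04 TPM. Hist1h2be lost the call without library 3, as did Hist1h2bq without library 1. Hist1h2bq and Hist1h2br share their coding sequence, and no 31-base word of either model is unique to it. Their separate calls are therefore uncertain, and neither held in M4. Their sum was 12.65, 1.83 and 7.60 TPM in M21, but 1.58, 2.09 and 2.24 TPM in M4. Hist2h2be, an H2B gene whose 2620-base model has the letters AATAAA in its last 50 bases, had 0.26, 0.34 and 1.29 TPM and did not pass (edgeR adjusted p = 0.287).

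H3 was the class with the least RNA, both in sum and in its members. The 12 clustered H3 genes summed to 5.68, 9.31 and 23.84 TPM, in each library less than Hist2h2ac alone. Hist1h3a had 0.48, 1.72 and 8.88 TPM (edgeR adjusted p = 0.0127), and that call was lost without library 3. Hist1h3e had 1.30, 3.69 and 4.96 TPM (edgeR adjusted p = 1.03e-03). With DESeq2 neither passed (adjusted p = 0.113 and 0.068). Hist2h3b had 0.46, 1.02 and 3.60 TPM and Hist1h3f 2.29, 0.05 and 1.69 TPM, and neither passed (edgeR adjusted p = 0.319 and 0.575). Hist1h3b and Hist1h3c had counts in library 3 only.

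The genes that code for H3 outside the clusters ran the other way. H3f3a and H3f3b, which encode the H3 variant laid down independently of DNA replication, had 267.01, 204.56 and 148.46 TPM and 222.34, 193.89 and 141.17 TPM. With Cenpa, the centromere variant, they summed to 493.8, 400.3 and 292.2 TPM. Clustered H3 RNA was 0.0115, 0.0233 and 0.0816 times that sum in libraries 1, 2 and 3 of the M21 gene tables, and 0.0150, 0.0240 and 0.0857 times in M4. For H1 the ratio lay on the other side of 1, at 23.0, 23.0 and 41.1 times H1f0, with H1fx at 0. For H2A it was 2.90, 2.17 and 2.39 times the sum of H2afx, H2afz, H2afv, H2afy, H2afy2 and H2afj, of which H2afz alone had 68.61, 68.65 and 95.86 TPM. These ratios are given without a test, and each held its side of 1 in all 3 libraries and in all 3 quantifications.

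**Figure D2:**
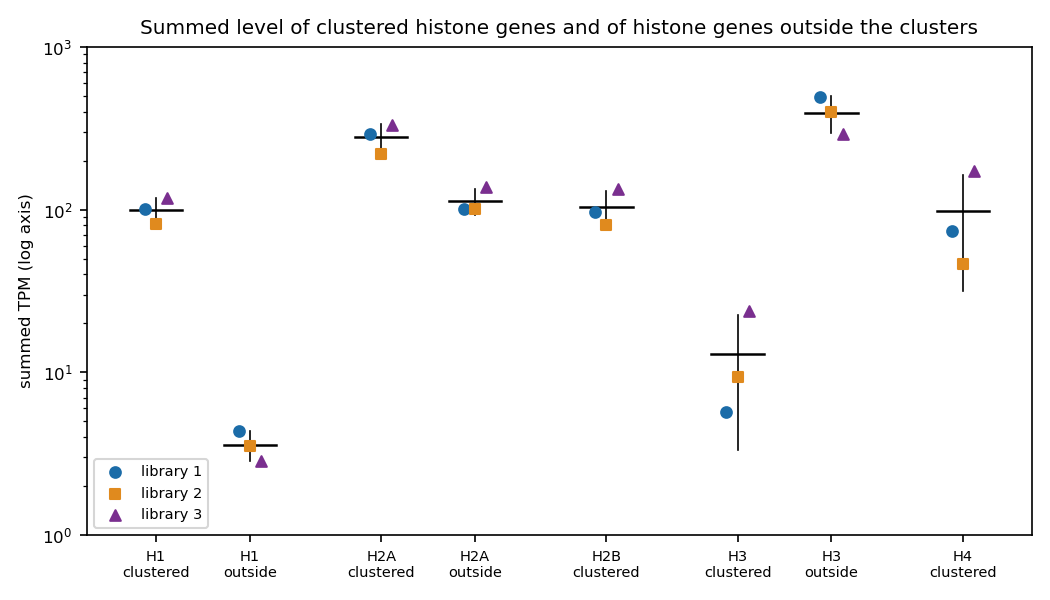
Summed TPM (log axis) of the clustered genes of each class and, for H1, H2A and H3, of the histone genes outside the clusters. Points are libraries 1, 2 and 3, the horizontal bar is their mean and the vertical line its SD. Clustered H3 lies at 5.68 to 23.84 TPM and the outside H3 genes at 292.2 to 493.8 TPM.

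The 13 H4 members summed to 74.0, 46.5 and 172.3 TPM, and 12 of them passed above 1 TPM. Hist1h4m had 13.77, 4.03 and 39.77 TPM (edgeR adjusted p = 2.39e-07), Hist1h4d 8.28, 8.44 and 17.55 TPM (edgeR adjusted p = 1.52e-08), Hist1h4k 14.14, 5.41 and 14.57 TPM (edgeR adjusted p = 7.79e-07) and Hist1h4c 9.81, 7.70 and 15.49 TPM (edgeR adjusted p = 1.70e-08). These leaders overlapped in range and could not be ranked. Hist1h4m and Hist1h4n share their coding sequence, and together had 22.8, 5.82 and 59.2 TPM, with library 2 lowest and library 3 highest in the sum too. The member with the lowest summed count, Hist1h4b, had 1.13, 1.13 and 6.40 TPM (edgeR adjusted p = 0.0461). Without library 3 that call was lost, along with those of Hist1h4i, Hist1h4j and Hist2h4. Hist4h4, the lone gene of chromosome 6, had 0.51, 0.22 and 1.15 TPM and did not pass (edgeR adjusted p = 0.258).

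The remaining 5 members did not reach a summed count of 10. Besides Hist1h1t they were Hist1h2aa and Hist1h2ba, the H2A and H2B genes known from male germ cells, and Hist1h3g and Hist2h3c1, each with 0 counts in every library. For Hist1h2aa a count of 0 allows up to 0.124, 0.108 and 0.193 TPM (3 counts per library, counting error only), and for Hist1h2ba up to 0.128, 0.111 and 0.199 TPM. Of their 31-base words 88.3% and 55.9% are found in no other gene, so their own reads could have been recognised. For Hist2h3c1, which overlaps Gm20634 on the same strand, that share is 0%, and its count of 0 cannot be read as absence.

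Because members resemble each other, reads were divided among them. Within H2A, H2B, H3 and H4, pairs of coding sequences were identical at a median of 91.5%, 93.9%, 97.1% and 93.9% of positions, against 71.4% in H1, and 63 of the 67 coding sequences are distinct. The 4 identical pairs are Hist2h2aa1 and Hist2h2aa2, Hist1h2ao and Hist1h2ap, Hist1h2bq and Hist1h2br, and Hist1h4m and Hist1h4n. Of 48 members with 10 or more counts in each library, 14 had a posterior SD over 10% of the count in at least 1 library, against 1.57% of 10807 protein-coding genes. None of the 5 H1 members was among them, while 5 of 12 H2A, 4 of 13 H2B, 2 of 5 H3 and 3 of 13 H4 members were. Hist1h2ao shows what this does to a value: it was listed at 11.94, 0 and 0 TPM, and Hist1h2ap at 0.94, 6.93 and 15.93 TPM. Their sum was far steadier, 12.9, 6.93 and 15.9 TPM.

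The second M21 quantification, made from the reads with a transcript index in the kallisto format, moved single members. Its TPM ran higher for protein-coding genes as a whole, by a median log2 of 0.94, and by a median of 0.71 for members, so shifts are read against that. Hist1h4d stood out with 60.8, 74.0 and 76.2 TPM and 5095, 6806 and 3822 counts, where the gene tables gave 895, 1000 and 1270 counts. Hist1h2bg had 1433, 2553 and 837 counts against 451, 452 and 653, and Hist1h2bk 76.7, 137.2 and 79.3 against 24.0, 44.1 and 25.6. Hist2h2aa2 went the other way with 8.84, 28.6 and 31.1 TPM, as did Hist1h2ao with 4.39, 0 and 0 TPM, and Hist1h2ag stayed at 0.986 times its level. These 6 genes were chosen after their values were seen, for the largest ratios between both tables.

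**Figure D3:**
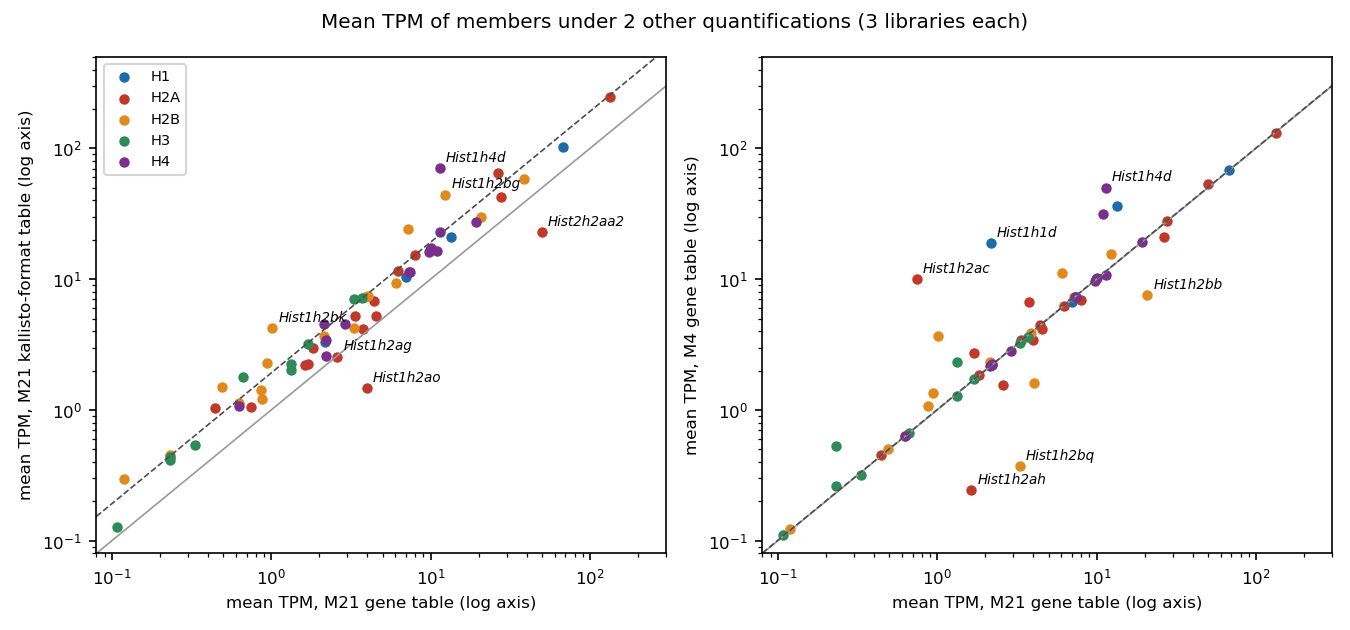
Mean TPM of each member over 3 libraries in the M21 gene tables (horizontal, log axis) against the kallisto-format tables (left) and the M4 gene tables (right, vertical log axes). The solid line marks equal values and the dashed line the median protein-coding gene. Hist1h4d lies above the line in both panels, and Hist2h2aa2 and Hist1h2ao lie below it on the left.

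Levels of single members also differed between the M4 and M21 annotations. Median shifts between M4 and M21 were 0.01 (log2) for protein-coding genes and 0.01 for 59 members, yet 7 members were more than 2-fold higher and 4 more than 2-fold lower in M4. Among 8231 protein-coding genes with a mean of 1 TPM or more and detected in every library, a filter not put on members, these shares were 0.304% and 4.82%. Hist1h2ac was 13.4 times higher, with a model of 476 bases against 2482 in M21, and Hist1h1d was 8.66 times higher. Hist1h4d, at 393 bases against 1138, had 36.20, 34.98 and 79.06 TPM on nearly the same counts, 884, 977 and 1233. Lengths did not differ in every case. Hist1h2bk was 3.66 times higher and Hist1h2ah 0.148 times its M21 level with 476 and 405 bases in both annotations, and Hist1h2bb was 0.364 times its M21 level with a shorter model, 452 bases against 508. Hist1h2bq was 0.113 times its M21 level, with 2015 bases in M4 against 381 for the M21 transcript used. It had 0.10 TPM in library 2 by both, where all its M21 counts lay on a transcript of 2015 bases. Where along these models the reads lie cannot be seen in tables of counts.

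Members differed between libraries. Library 3 gave the highest level for 45 of the 62 members tested, against 53.4% of protein-coding genes tested. More than 2-fold above both other libraries were 25 members, against 12.5% of protein-coding genes, and 0 were more than 2-fold below, against 3.48%. In H4 all 13 members were highest in library 3 and 9 were more than 2-fold above both others. The classes were not tested against each other. For H3 these counts were 7 and 4 of 10, for H2B 9 and 6 of 17, for H2A 12 and 5 of 17 and for H1 4 and 1 of 5. Hist1h3b, Hist1h3c and Hist1h2af are in these counts but reached the count filter only through library 3. Their place there was therefore set by the filter. Division of reads enters these counts too. The 5 H2A members more than 2-fold above were Hist1h2ap, Hist1h2ad, Hist1h2ag, Hist1h2ah and Hist1h2af. Each had a posterior SD over 10% of the count in at least 1 library. Hist1h2ap shares its coding sequence with Hist1h2ao, and the sum of both, 12.9, 6.93 and 15.9 TPM, was not more than 2-fold above. Summed over a class, library 3 stood at 2.86 times the mean of libraries 1 and 2 for H4 and 3.18 times for H3, but 1.51 times for H2B and 1.29 times for both H2A and H1. The median protein-coding gene stood at 1.21 times.

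**Figure D4:**
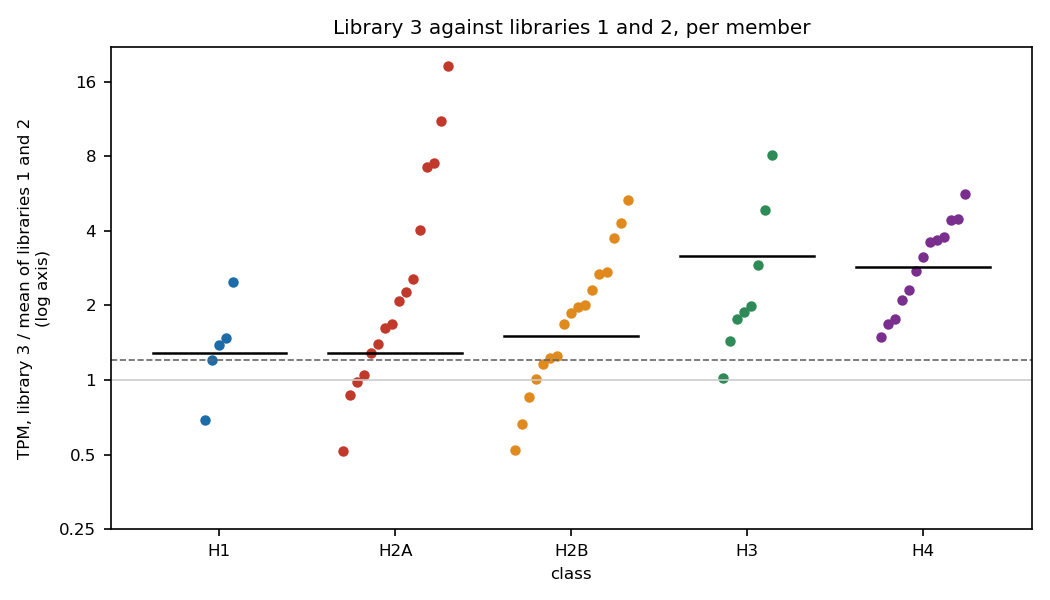
TPM in library 3 divided by the mean of libraries 1 and 2 (log axis) for each member that passed the count filter and had counts in library 3 and at least 1 other, by class. The black bar is the ratio of the class sums and the dashed line the median protein-coding gene, 1.21. All 13 H4 members lie above it.

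Library 3 also differed in what else it held. Its fragment range was recorded as 200 to 1000 bp, against 200 to 594 and 200 to 491 bp, and its total was the lowest of the 3. In library 1, 292 protein-coding genes tested had an effective length under 400 bases, as many members have. Of these, 9.59% were more than 2-fold above both other libraries in library 3 and 28.1% were highest there. The members of that length are themselves among the 292, so these shares are not a separate background for them. NK cell and platelet marker sums were highest and erythroid, neutrophil and basophil marker sums lowest in library 3, as given above. Most of the neutrophil sum in libraries 1 and 2 was Retnlg, but S100a8, S100a9, Cxcr2 and Mmp8 were lowest in library 3 too. The part of these in the histone levels was not tested. Leaving out library 3, the H4 sum averaged 60.3 TPM against 97.6 TPM with it, and the H3 sum 7.50 against 12.9 TPM.

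Many H2A and H2B genes are arranged head to head, their starts a short stretch apart. Of 13 such pairs of members with starts 176 to 660 bases apart, 12 join an H2A and an H2B gene and 1 joins Hist1h2bh and Hist1h3f. Partners often stood at unequal levels. At the Hist2h2ac and Hist2h2be pair, levels were 30.32, 15.85 and 37.36 TPM on one side and 0.26, 0.34 and 1.29 TPM on the other. Hist1h2ai had 28.62, 34.92 and 16.37 TPM beside 0, 0.74 and 0.73 TPM for Hist1h2bl. At other loci the H2B gene was higher, as for Hist1h2bc at 3.01, 4.66 and 10.44 TPM beside Hist1h2ac at 0.53, 0.78 and 0.92 TPM, and for Hist1h2bg beside Hist1h2ae at 2.98, 0.57 and 1.55 TPM. Hist1h2ak and Hist1h2bn overlapped, at 4.92, 5.19 and 8.56 TPM and 8.59, 5.11 and 7.92 TPM. Model length enters these gaps: Hist2h2be has a 2620-base model and Hist1h2ac a 2482-base one. In M4 Hist1h2ac stood at 6.23, 10.79 and 12.96 TPM beside 6.09, 8.29 and 18.96 TPM for Hist1h2bc. There the H2A gene of this pair was the higher one in libraries 1 and 2.

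**Figure D5:**
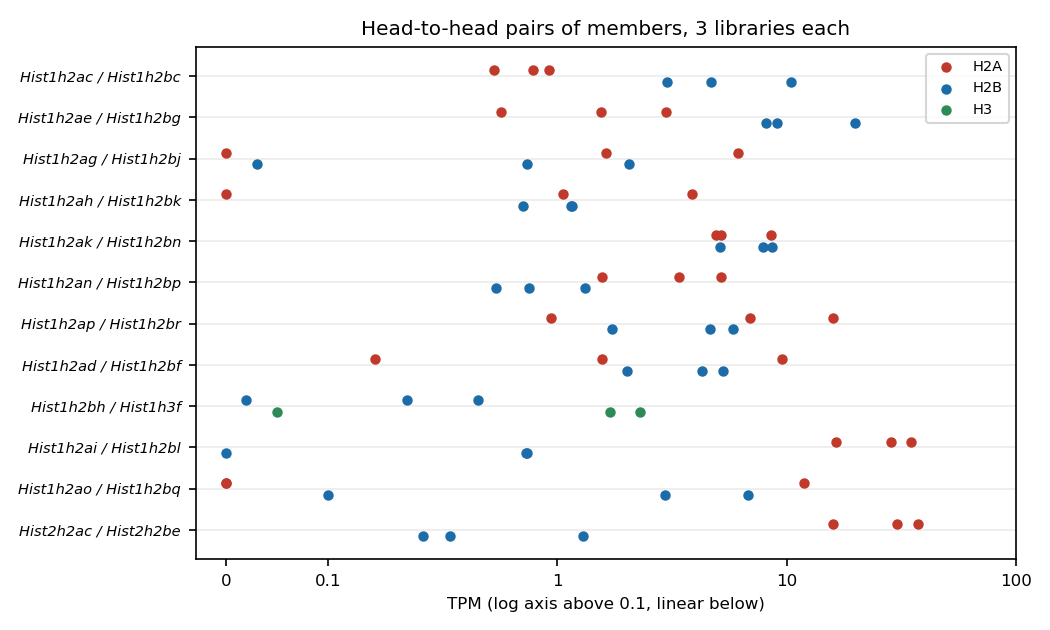
TPM (horizontal, log above 0.1 and linear below) of both genes of the 12 head-to-head pairs with counts, 3 libraries each. Each row is 1 pair, with points coloured by class. Hist2h2ac and Hist1h2ai lie to the right of their H2B partners in every library, and Hist1h2ac and Hist1h2ae to the left of theirs. Values are from the M21 gene tables, and in M4 Hist1h2ac was above its partner in libraries 1 and 2.

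The stretch between the starts of the Hist2h2ac and Hist2h2be pair, whose levels did not overlap, is shown here, chr3:96220881-96221118 of GRCm38.p6 from RefSeq, 238 bases on the minus strand, so that it reads towards Hist2h2ac at its right end and away from Hist2h2be at its left. Capitals mark every match, on either strand, to CCAAT, the box bound by the factor NF-Y, to TATAAA, a form of the TATA box, and to ATTTGCAT, the octamer known from H2B promoters.
Hist2h2ac and Hist2h2be: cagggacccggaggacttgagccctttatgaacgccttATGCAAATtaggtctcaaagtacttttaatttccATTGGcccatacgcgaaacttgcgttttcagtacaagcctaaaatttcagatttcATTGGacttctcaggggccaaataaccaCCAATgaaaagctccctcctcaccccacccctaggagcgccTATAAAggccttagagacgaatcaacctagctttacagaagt
It holds 3 matches to CCAAT, 2 of them on the other strand, 1 to ATTTGCAT on the other strand, and 1 to TATAAA, which lies on the strand and at the end of Hist2h2ac. Of the 67 members 62 had a promoter of 300 bases in the RefSeq table, with 63 in all. CCAAT on either strand was found in 85.7% of them against 37.3% of 32788 promoters of other genes, TATAAA in 55.6% against 13.5% and ATTTGCAT in 22.2% against 1.70%. All promoters of H1, H2A, H2B and H3 members held CCAAT, and 3 of 12 of H4 did. ATTTGCAT was found in 7 of 18 H2A and 7 of 17 H2B promoters and in none of H1, H3 or H4. Since partners share most of this stretch, such promoters are not independent, and a match describes letters only.

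The genes that process and break down histone messages were present. Of 15 such genes 11 passed above 1 TPM and 2 below, beside 54.0% and 6.03% of all protein-coding genes tested. Slbp, which binds the stem-loop, had 21.31, 18.31 and 24.26 TPM (edgeR adjusted p = 4.56e-11), Cpsf3, the endonuclease that cuts the message end, 12.32, 8.48 and 10.86 TPM, and Eri1, an exonuclease that trims it, 6.66, 5.51 and 7.20 TPM. Zfp473, a zinc finger protein of histone pre-mRNA processing, was lowest with 0.11, 0.07 and 0.21 TPM and passed below 1 TPM (edgeR adjusted p = 0.0249). Leaving out any 1 library, or using DESeq2, ended that result. Of 14 histone chaperones 11 passed above and 1 below. Atrx, which with its partner places the replication-independent H3, had 33.66, 24.41 and 50.57 TPM, Nap1l1 32.24, 24.42 and 29.85 TPM and Nasp, which binds H1 and H3 with H4, 15.28, 14.04 and 16.35 TPM. Chaf1a, the large subunit of the chaperone that works at replication forks, had 0.48, 0.06 and 0.22 TPM and passed below (edgeR adjusted p = 0.042), but not without library 2 or library 3 and not with DESeq2.

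Of 23 replication and S phase genes, 10 passed above 1 TPM and 3 below, beside 54.0% and 6.03% of protein-coding genes. They were led by Pcna, the sliding clamp, at 25.91, 21.33 and 34.02 TPM, the helicase subunit Mcm7 at 7.43, 4.99 and 9.95 TPM and the reductase subunit Rrm1 at 4.10, 4.79 and 10.99 TPM. Cdc6, which loads the helicase, had 0.07, 0.07 and 0.18 TPM (edgeR adjusted p = 0.0348) and lost its call below 1 TPM with any 1 library left out and with DESeq2. The list summed to 61.3, 54.0 and 92.8 TPM. In library 3, 19 of 23 genes were highest, beside 53.4% of protein-coding genes tested. Of 10 mitosis genes 1 passed above, Top2a at 1.48, 1.45 and 2.69 TPM (edgeR adjusted p = 7.69e-03), and 9 did not pass. The Top2a call was lost without library 3, with DESeq2 and with limma on log2(TPM + 1). Mki67, the marker of dividing cells, had 0.30, 0.35 and 1.27 TPM, Cdk1 0.43, 0.64 and 0.65 TPM, and Plk1, the lowest, 0, 0.02 and 0.07 TPM. Of 11 histone genes outside the clusters 8 passed above, and 5 were highest in library 3, beside the same 53.4%.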

How the data were processed

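Values come from the tables deposited for 3 total RNA-seq libraries, mapped to mm10 per the labels. The authors' gene tables, made with GENCODE M21 and again with M4 per the accompanying notes, hold expected counts, estimated read numbers that need not be whole, and TPM values for genes. A further deposited kallisto-format table holds an estimated count and TPM per transcript, summed here per gene. No source used here names the quantifier or its strand setting, so reads of overlapping genes on opposite strands may not be told apart. Rows naming no gene held 0.000571%, 9.04e-05% and 7.53e-05% of counts in libraries 1, 2 and 3 and stayed out of the tests.

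Expected counts were rounded and fitted with edgeR 4.0.16 (quasi-likelihood, intercept only), offset by the log of the counts equal to 1 TPM (112, 121 and 76.0 for 1000 bases in libraries 1, 2 and 3). Each gene was thereby tested against 1 TPM, two-sided, with Benjamini-Hochberg adjustment at 0.05 over 17664 genes that had at least 10 counts in sum. F was computed from the deviances of that fit. On simulated data with a coefficient of variation of 0.788, the fit (17649 genes) called 2.61% of 1993 genes simulated at 1 TPM. It called 23% of those simulated at 2, 76% at 4, 14% at 0.5 and 60.6% at 0.25 TPM. DESeq2 1.42.0 and limma 3.58.1 served as alternatives. Limits on counts of 0 take 3 counts and cover counting error only.

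Transcript sequences and positions are GENCODE M21 on GRCm38 (mm10), and promoters are RefSeq's on GRCm38.p6. Where a gene has several coding transcripts, that with the highest TPM was used. All 67 members matched RefSeq. Members and gene lists were chosen with earlier results of these data known. Genes were named by rule: every H1 member, the 4 highest by mean TPM and the 1 with the lowest summed count in the other classes, members under the count filter, and the 3 highest and the lowest of each list. Others were named after their values were seen.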

Additional observations from a re-analysis of the deposited data

How the results depend on the processing

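The count of 38 members above 1 TPM became 25 against a level of 2 TPM, and ranged from 30 to 37 with 1 library left out. It lay between 26 and 54 under DESeq2, limma with either pseudocount, TMM factors, no filter, a level of 0.5 TPM, protein-coding TPM, M4 and the kallisto-format tables. The count of 0 below became 3 against 2 TPM, 7 and 6 with limma on log2(TPM + 0.1) and log2(TPM + 1), and 0 to 2 with 1 library left out. The summed level of members, 594.3 TPM, was 1027.6 TPM in the kallisto-format tables, 5638.2 TPM when scaled over protein-coding genes and 503.3 to 672.9 TPM with 1 library left out. Summed counts averaged 33647.3, against 44334.3 in the kallisto-format tables and 32071.5 to 34807.3 with 1 library left out. Class sums averaged 156.6 TPM for H4, 139.8 for H1 and 57.1 for H2B in M4, and 209.4, 153.1 and 201.7 TPM in the kallisto-format tables. The M4 sum of H2B lacks Hist2h2bb, Hist1h2bm and Hist1h2bh, which have no value there. Of 285 values for 22 named members under alternatives, 267 kept their side of the threshold, 14 lost it, 4 gained it and 0 reversed. Of the list genes, 5 changed sign on the protein-coding scale: log2 levels were 0.27 for Zfp473, 1.22 for Chaf1a, 0.01 for Cdc6, 2.59 for Mki67 and 2.47 for Cdk1. Top2a had -0.10 against 2 TPM. Both follow from moving the level tested. The causes of the other differences were not tested. No paired analysis was possible because the series holds 1 group. With 3 libraries and 1 spread simulated for every gene, 23% of genes at 2 TPM were recovered. For genes of that spread, levels near 1 TPM therefore often cannot be placed. Genes that varied less could be called, as edgeR did for Hist1h1d at a mean of 2.17 TPM ± 0.582 (SD, n = 3). The effect of depth was not tested.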
